A study of Mus musculus with 117 samples.

Results

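Prom1 was measured by 1 probe set, 1419700_PM_a_at, among the 45141 probe sets of the array. It is the only probe set annotated to Prom1 alone (RefSeq transcript NM_008935). Prom1 is 1 of 17097 genes with a probe set of their own. All its values therefore come from the same probes, and agreement between probe sets could not be examined. The ending "_a_at" marks a probe set that recognises several transcripts of 1 gene, so transcripts of Prom1 were not told apart. Prom1 was read in 117 samples of C57BL/6 mice, 51 of sorted normal cells in 12 groups and 66 tumours of 7 types. Normal prostate, lung, intestine, liver, stomach and uterus were dissociated and separated with anti-Prom1 magnetic beads into Prom1-positive and Prom1-negative cells, and each of the 12 groups is 1 tissue and 1 sort. The tumours were frozen as pieces of tissue, without sorting: 10 prostatic adenocarcinomas, 14 bronchial papillary adenomas, 13 hepatocellular carcinomas, 11 gastric adenocarcinomas, 9 uterine adenocarcinomas, 6 squamous cell carcinomas of skin and 3 B-cell lymphomas. The series refers to Prom1 conditional mutants, but the alleles, the agents, the ages and the genotype of each tumour are not given in the sources used here. Whether a tumour carried an altered Prom1 allele is therefore unknown, and the part of an allele in any value below was not tested.

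Prom1 encodes prominin-1 (the CD133 antigen), a glycoprotein that crosses the membrane several times, binds cholesterol and sits on microvilli and other protrusions of the plasma membrane. It is used as a surface marker of stem and progenitor cells, and in many epithelia it also lies on the apical surface of differentiated cells. In liver it is known as a marker of bile duct and progenitor cells rather than of hepatocytes. Mutations of the gene cause retinal degeneration, where the protein is needed in photoreceptor discs.

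The gene has more than 1 start in the reference, and the start sites are shown here because the values below do not tell their transcripts apart; which of them the probes match was not examined. RefSeq (GRCm38.p6) gives 2 start windows, each of 300 bases around a start, both on the minus strand of chromosome 5 and printed as transcribed. Capitals mark matches to any of 5 motifs searched on both strands: the CCAAT box, the GC box (GGGCGG), the TATA box (TATAAA), the E-box (CACGTG) and the T-cell factor motif (CTTTGAT).
Window 1, chr5:44101687-44101986: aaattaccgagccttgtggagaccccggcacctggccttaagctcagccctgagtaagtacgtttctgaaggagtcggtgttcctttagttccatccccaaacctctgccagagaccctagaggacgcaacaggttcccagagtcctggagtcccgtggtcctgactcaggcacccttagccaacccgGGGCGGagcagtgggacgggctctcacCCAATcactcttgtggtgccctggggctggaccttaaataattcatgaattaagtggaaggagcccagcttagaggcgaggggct
Window 2, chr5:44094719-44095018: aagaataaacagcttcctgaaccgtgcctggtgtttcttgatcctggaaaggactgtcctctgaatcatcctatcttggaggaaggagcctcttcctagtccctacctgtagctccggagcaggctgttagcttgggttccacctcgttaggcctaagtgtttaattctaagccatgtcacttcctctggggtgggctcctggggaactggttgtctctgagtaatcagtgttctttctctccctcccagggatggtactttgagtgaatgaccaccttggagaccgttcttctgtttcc
The first window held the GC box at base 189, counted from its 5′ end, and the CCAAT box downstream of it. The second held none of the 5 motifs. Of 32817 RefSeq windows of this length, 37.4% held the CCAAT box, 35.6% the GC box, 13.6% the TATA box, 7.1% the E-box and 3.7% the T-cell factor motif. The matches describe the letters of these windows and were set against no signal.

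Values are deposited log2 signals, on which 1 unit is a doubling. Array medians lay between 3.63 and 4.01, and a signal near or under them is not told apart from background here. The upper quartile of an array ranged from 5.05 to 6.53, with 6 arrays under 6. Each tissue's marker genes were bright in its sorted cells, with a mean of 12.36 over 8 stomach genes in positive stomach cells and of 11.40 over 8 liver genes in negative liver cells. In 4 libraries a list of another organ also had a mean of at least 8. Hepatocellular carcinomas 1 and 8 had means of 9.42 and 8.27 over 6 lung genes, uterine adenocarcinoma 6 had 9.81 over 8 liver genes, and negative intestine sample 2 had 11.23 over 8 stomach genes. Their Prom1 signals were 8.34, 9.38, 8.47 and 8.47. Without these 4 libraries each of the 41 Prom1 comparisons refitted kept its call, and 1 that was not called, hepatocellular against gastric tumours, turned its sign. The positive intestine samples, under the cut of 8 and so kept, had means of 5.95 to 7.69 over the stomach genes. Negative lung samples had 3.36 to 3.88 over the same genes. The part of this stomach signal in the Prom1 values of intestine was not tested. In negative lung sample 7 (Prom1 7.37) 7 B cell genes had a mean of 8.03. In uterine adenocarcinomas 1, 2, 3, 5, 6 and 9 the mean over 7 squamous genes was 8.49 to 9.38. Their Prom1 signals were 4.51, 6.12, 2.56, 7.28, 8.47 and 9.73. Uterine tumours 4, 7 and 8 stayed under 8 in these genes, with Prom1 at 10.66, 10.66 and 2.45. Of the uterine tumours only number 6 was among the 4 libraries left out.

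Among sorted normal cells, Prom1 was highest in stomach and uterus and lowest in liver. The group means (± SD) ran from 11.85 ± 0.18 in positive stomach cells (n = 3) and 11.37 ± 0.48 in positive uterus cells (n = 4) to 10.21 ± 0.78 in negative stomach (n = 4), 10.18 ± 0.44 in positive prostate (n = 3) and 9.91 ± 0.54 in negative uterus cells (n = 3). They continued with 9.20 ± 1.16 in positive intestine (n = 3), 8.66 ± 0.64 in negative intestine (n = 5), 8.42 ± 0.54 in negative prostate (n = 5), 6.56 ± 0.01 in positive lung (n = 3) and 6.55 ± 0.46 in negative lung (n = 7). Liver came last, at 3.17 ± 0.69 in positive (n = 4) and 2.94 ± 0.36 in negative cells (n = 7). In 10 of the 11 liver samples the signal was below the array's own median, and the exception, positive sample 5, was 0.35 above it. In every other sorted sample Prom1 was at least 2.18 above the array median.

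**Figure D1:**
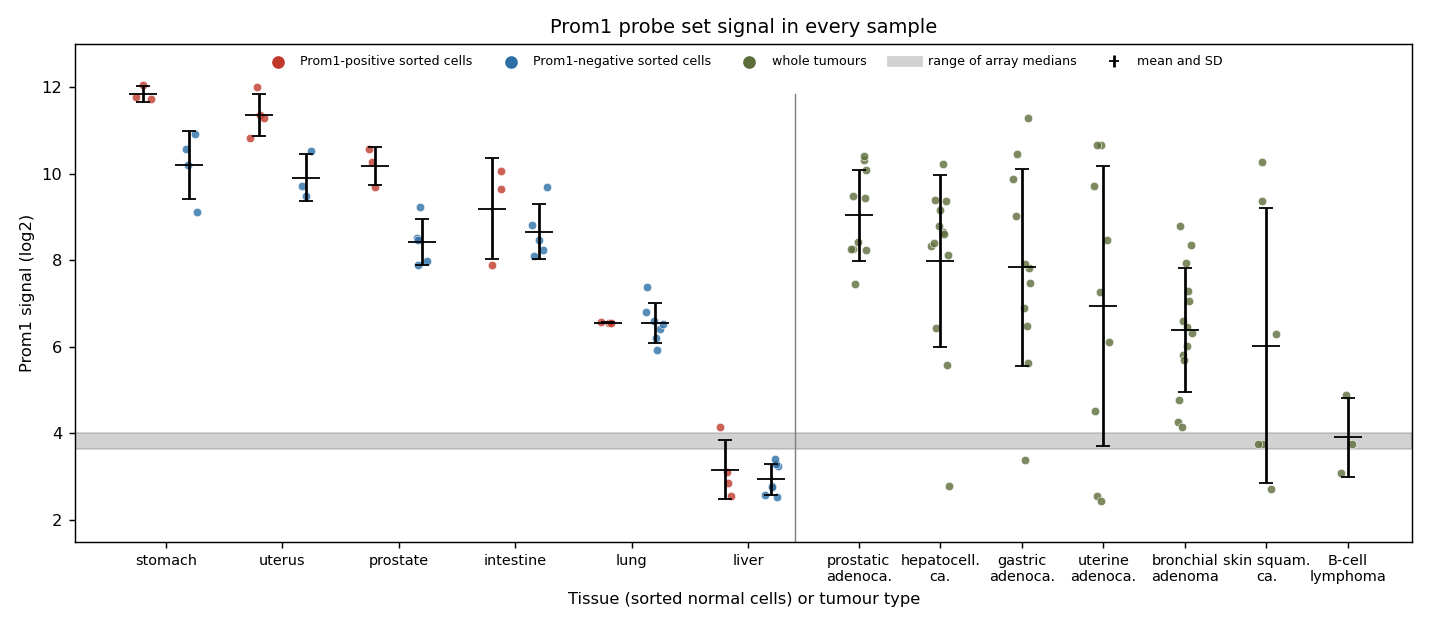
Prom1 signal (log2, vertical axis) in each of 117 samples, for positive and negative sorted cells of 6 tissues on the left and for 7 tumour types on the right; points are samples, bars the mean and SD, and the grey band the range of array medians. Sorted liver cells lie below the band but for 1 sample at 4.14, with group means of 3.17 and 2.94, stomach-positive cells reach 11.85, and the points of most tumour types are spread over several log2 units.

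The 6 tissues differed in Prom1 (limma moderated F test, 2 sorts averaged, Benjamini-Hochberg adjusted p = 4.35e-29), in a fit where 85.7% of the 32656 probe sets tested differed between tissues. Of the 66 pairs of sorted groups, 54 were called at an adjusted p under 0.05 and 49 had ranges that did not overlap. Between neighbours in the order of means, 3 steps were called by limma. Positive uterus exceeded negative stomach cells by 1.16 (SE 0.39, adjusted p = 0.02, 32.2% of probe sets called). That step was lost without negative stomach sample 1 (0.80, adjusted p = 0.122) or positive uterus sample 1 (0.95, adjusted p = 0.0864), and with quantile normalization repeated (1.01, adjusted p = 0.0556). Negative prostate exceeded positive lung cells by 1.86 (SE 0.41, adjusted p = 0.000761, 14.8% called), and negative lung exceeded positive liver cells by 3.38 (SE 0.35, adjusted p = 6.65e-11, 49.8% called). Since 3 of the 4 positive liver samples were below their array median, the size of the last step is a bound. With each liver sample at no less than that median, the step between sample means was at least 2.70, sampling error aside. The remaining 8 neighbours were not separated at this number of arrays. Positive stomach and positive uterus cells, for example, differed by 0.48 with a 95% confidence interval from -0.37 to 1.34.

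The beads select on the Prom1 protein, so the transcript is a separate readout of the same gene and shows how far the sorted cells differed in Prom1 RNA. Prom1 was higher in positive cells in prostate, stomach and uterus and was not called in intestine, liver or lung. Averaged over the 6 tissues, positive cells were 0.94 higher (SE 0.16, 95% confidence interval 0.61 to 1.27, limma adjusted p = 6.86e-05), which is 1.92-fold, and 11.6% of probe sets were called in that mean. Labels number the samples of a group but do not say that each came from its own animal, so p-values throughout refer to samples, not animals. Limma shares 1 spread per probe set over all groups of a fit, although the SDs of Prom1 ran from 0.01 in positive lung cells to 3.24 in uterine adenocarcinomas. Its intervals and p-values can therefore be too narrow or small for widely spread groups, and too wide or large for tight ones. In these bulk samples, fewer cells that carry Prom1 and less Prom1 RNA per cell cannot be told apart.

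In prostate the positive samples read 10.28, 9.69 and 10.56, and the negative samples 9.24, 8.51, 7.89, 7.99 and 8.47. Every positive sample was above every negative one, with a gap of 0.45. The difference was 1.76 (SE 0.41, limma adjusted p = 0.00298), a 3.38-fold higher signal, where 6.71% of probe sets were called. Removal of any 1 library left it called, with differences from 1.57 to 2.0.

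Stomach positive samples read 12.06, 11.72 and 11.78. The negative samples read 9.12, 10.57, 10.20 and 10.93, so the groups were apart by 0.79, and even the lowest negative sample carried a signal far above its array median. The difference of 1.65 (SE 0.42, limma adjusted p = 0.0224) came in a comparison where 2.43% of probe sets were called. It missed the threshold without positive sample 1, 2 or 3 (adjusted p = 0.0788, 0.0681 and 0.0577) and without negative sample 1 (1.29, adjusted p = 0.1). Leaving out the 6 dimmer arrays (upper quartile under 6) gave 1.97 (adjusted p = 0.135), but leaves 1 positive sample, which is assumed to vary like the other groups. With neighbouring sample codes as blocks the difference was 0.92 (adjusted p = 0.442).

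In uterus the positive samples read 11.99, 11.37, 10.82 and 11.29 and the negative samples 9.49, 9.71 and 10.52. The groups were apart by 0.30, the narrowest gap of the 3 separated tissues. The difference was 1.46 (SE 0.42, limma adjusted p = 0.0206), with 8.54% of probe sets called. It missed the threshold without positive sample 1 (adjusted p = 0.1), negative sample 1 (adjusted p = 0.156) or negative sample 2 (adjusted p = 0.104).

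The intestine samples read 7.88, 9.64 and 10.07 in positive and 8.24, 8.47, 8.09, 8.82 and 9.70 in negative cells. Positive sample 1 was below every negative sample, and positive sample 3 was above them all. The difference was 0.53 (95% confidence interval -0.28 to 1.35, limma adjusted p = 1), in a comparison with only 0.175% of probe sets called. The interval includes both 0 and the difference seen in the mean of 6 tissues, so neither can be told from these samples. With 1 library left out the difference ran from 0.096 to 1.19.

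Lung gave the closest readings of all: 6.55, 6.57 and 6.55 in positive cells, inside a negative range of 5.92 to 7.37 with a median of 6.53. The difference was 0.01 (95% confidence interval -0.76 to 0.78, limma adjusted p = 0.999, 1.44% of probe sets called). Its sign turned without negative sample 1, 2 or 5 or positive sample 2. Liver positive samples read 2.85, 2.56, 3.12 and 4.14 and negative samples 2.53 to 3.41 with a median of 2.78. The difference of 0.23 (95% confidence interval -0.48 to 0.93, limma adjusted p = 0.721) rested on positive sample 5, without which it was -0.10. Both liver sorts lay near background, so a difference between them has no defined size here. This was in a tissue where 22.7% of probe sets were called between the sorts.

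The sort difference itself varied between tissues (limma F test of the tissue by sort interaction, adjusted p = 0.0315, 20.9% of probe sets called). That call was lost without positive prostate sample 1 (adjusted p = 0.0511), positive prostate sample 3 (adjusted p = 0.0609) or positive liver sample 3 (adjusted p = 0.0612). With all 117 samples in the fit, where tumours add to the estimate of the spread, neither the interaction (adjusted p = 0.91) nor the mean of 6 tissues (adjusted p = 0.195) was called, and the differences in prostate, stomach and uterus missed the threshold as well. In an exact permutation test on Prom1 alone, the p was 0.0357 in prostate and 0.0571 in both stomach and uterus. Each is the smallest those sample numbers allow, and all became 0.114 after adjustment over 6 tissues.

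**Figure D2:**
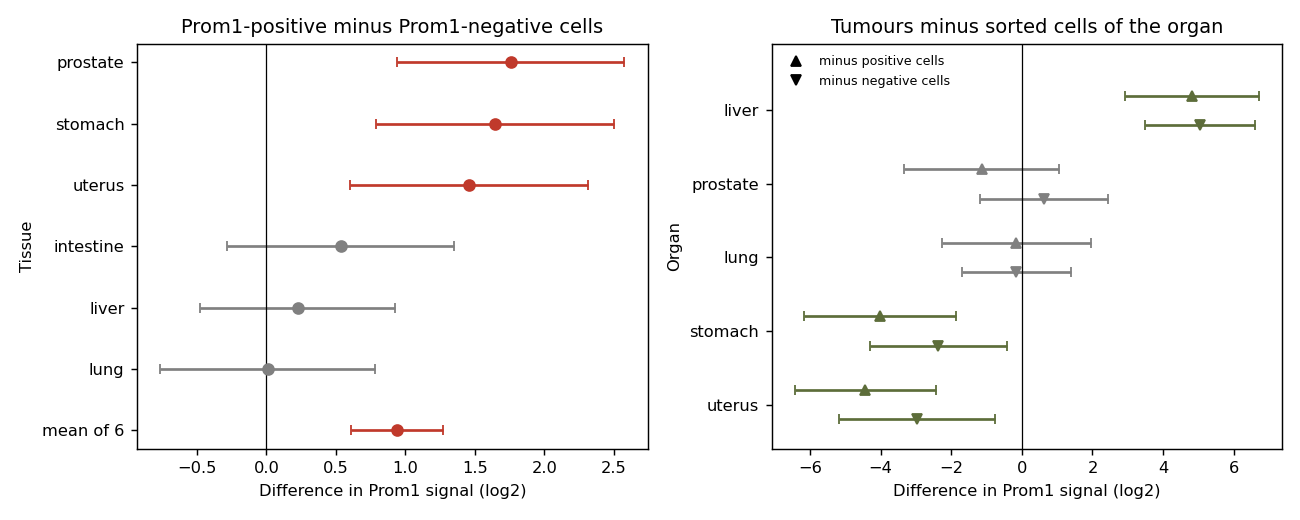
Differences in Prom1 signal (log2, horizontal axes) with 95% confidence intervals from limma, for positive minus negative cells in 6 tissues and their mean (left) and for tumours minus positive (upward triangles) or negative cells (downward triangles) of the same organ (right); coloured symbols have an adjusted p under 0.05 and grey ones do not. Prostate, stomach and uterus lie between 1.46 and 1.76 on the left, and on the right liver lies near 5 while stomach and uterus lie below 0.

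Other genes of the protein's surroundings were read in the same sorts. Of 14 epithelial genes tested, 6 rose and 0 fell in the mean of the 6 tissues, with a median difference of 0.43 against 0.01 over all probe sets. The 6 were Ehf (0.90) and Elf3 (0.47), epithelial transcription factors of the ETS family, Rab25 (0.65), a vesicle transport GTPase of epithelia, Cldn7 (0.62), a tight junction protein, Esrp1 (0.58), an epithelial splicing regulator, and Spint1 (0.56), an inhibitor of membrane serine proteases. Over all probe sets 4.17% rose and 7.38% fell in that mean. By tissue, Elf3 rose in prostate (1.45), Cldn7 (2.42) and Ehf (1.85) in stomach, and Rab25 (1.79), Ehf (1.67), Spint1 (1.66) and Elf3 (1.21) in uterus, where 2.1%, 1.54% and 3.96% of all probe sets rose. No epithelial gene was called in lung, intestine or liver.

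Of 15 genes of microvilli and the apical membrane, where the protein resides, 0 rose and 1 fell in the mean of the 6 tissues (Ezr, which ties microvillar actin to the membrane, fell by 0.61), and their median difference was 0.18. By tissue, Pdzk1, an apical scaffold protein, rose in prostate (1.66), and Vil1, the actin-bundling villin, and Anpep, an apical peptidase, rose in stomach (1.54 and 2.0). In positive liver cells Ezr (-3.10) and Podxl, a sialomucin of the apical membrane (-1.83), fell, and no gene of the list was called in lung, intestine or uterus. Among 4 family members and partners tested, Hdac6, a deacetylase that binds prominin-1, rose by 0.53. In liver Hdac6 rose (1.08) and Plcg2, a signalling phospholipase, fell (-2.89). Of 9 further surface proteins used to isolate stem cells, Lgr5, a receptor on intestinal and gastric stem cells, rose by 0.78, while Thy1 (-1.76) and Nt5e (-1.26), markers of stromal and lymphoid cells, were lower. Lgr5 differed between tissues: it rose in stomach (3.74) and uterus (1.53), as Prom1 did, but fell in prostate (-2.09). Cd44, a hyaluronan receptor, rose in stomach (3.59) and fell in liver (-3.45), where Cd24a, Thy1 and Kit of this list also fell (-2.93, -1.98 and -1.97). Of all probe sets 2.1%, 1.54% and 3.96% rose in prostate, stomach and uterus, and 4.6% fell in prostate. In liver 9.58% rose and 13.1% fell, and in the mean of the 6 tissues 4.17% rose and 7.38% fell. The 2 of 15 microvillus genes that fell in liver were near the share of all probe sets.

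Prom2, the other prominin gene, followed Prom1 in 1 tissue. Its brighter probe set read 7.95 ± 0.41 (SD, n = 3) in positive and 6.18 ± 0.25 (SD, n = 5) in negative prostate cells, a difference of 1.77 (limma adjusted p = 2.62e-05). It was dim in the uterus (2.89 positive, 2.94 negative) and in the stomach (3.96 and 4.23), the tissues with the highest Prom1. Among tumours it was well above array medians in prostatic adenocarcinomas (7.18 ± 0.76, SD, n = 10) and squamous cell carcinomas (7.19 ± 1.14, SD, n = 6). A second Prom2 probe set had group means of 2.68 to 3.58 throughout, so the 2 probe sets of that gene disagreed.

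Lymphocyte, stromal and myeloid markers moved with the sort too. From the list of 8 T and NK lymphocyte genes, 7 fell in positive prostate cells, 6 in lung, 8 in liver and 4 in uterus, where 4.6%, 1.14%, 13.1% and 4.58% of all probe sets fell. The mean over these 8 genes was 3.56 to 3.68 in positive and 6.17 to 7.53 in negative prostate samples, and 3.38 to 3.71 in positive and 5.34 to 5.65 in negative uterus samples. Fibroblast genes fell in prostate (5 of 8; sample means of 5.17 to 7.19 against 7.57 to 9.04) and in uterus (4 of 8; 8.20 to 9.22 against 10.18 to 10.63). They also fell in liver (3 of 8, 4.13 to 4.86 against 4.99 to 6.16) and in lung (1 of 8). Macrophage genes rose in uterus (7 of 8, 10.99 to 11.48 against 7.53 to 8.27) and in lung (3 of 8), where 3.96% and 0.3% of all probe sets rose. All 8 fell in liver (6.67 to 9.62 against 9.90 to 10.89), where 13.1% of all probe sets fell. Endothelial genes fell in prostate (4 of 8; 4.64 to 4.95 against 5.36 to 7.74) and in liver (6 of 8; 5.97 to 10.21 against 9.07 to 10.16). In stomach, where 0.882% of probe sets fell, no gene of these 4 lists was called; the macrophage mean was 4.78 to 5.12 in positive and 3.40 to 4.39 in negative samples. In prostate and uterus the part of these cells in the Prom1 difference was not tested.

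In lung, the epithelial list had a mean of only 5.70 in positive and 6.31 in negative cells, against 9.43 in the adenomas, although 6 lung genes were bright in the sorted cells (9.40 and 9.84). The sorted lung cells also carried endothelial genes at 9.19 and 9.23 and macrophage genes at 10.20 and 8.46. In sorted liver, hepatocyte genes were bright while the epithelial list stayed at 5.21 and 4.97.

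Tumours of the organs with the least and the most Prom1 moved in opposite directions. Hepatocellular carcinomas were far above sorted liver cells, and gastric and uterine adenocarcinomas were below the sorted cells of their organs. For prostatic adenocarcinomas and bronchial adenomas no difference from the sorted cells of their organs was called. The change differed between the 5 organs (limma F test of the organ by state interaction, adjusted p = 1.41e-11, 76% of probe sets called), and the mean over them was -0.47 (adjusted p = 0.227, 66.2% called). All 117 samples entered this fit. Whole frozen tumour was set against dissociated and sorted cells, so tumour state cannot be told apart from the handling of the tissue or from cells that sorting left out, and the wide share of probe sets called in each organ applies to all values below.

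Prom1 in the 13 hepatocellular carcinomas ranged from 2.79 to 10.23 with a median of 8.62 (mean 7.99 ± 1.99, SD), and 12 of the 13 exceeded all 11 sorted liver samples, whose highest was 4.14. Carcinoma 9, at 2.79, was the exception and lay inside the range of normal liver. Carcinomas 4 and 5 were intermediate, at 5.57 and 6.44, and the other 10 were at 8.13 or above. Against the mean of both sorts the tumours were 4.94 higher (SE 0.70, 95% confidence interval 3.55 to 6.33, limma adjusted p = 6.01e-09), where 45.9% of probe sets were called. Because 10 of the 11 sorted liver samples were below their array median, the size is a bound. With each sorted sample at no less than that median, the mean of the carcinomas was at least 4.21 higher, or at least 18.5-fold. The bound covers background only and holds no sampling error. The difference was 4.83 against positive cells (adjusted p = 1.94e-05, 42% called) and 5.05 against negative cells (adjusted p = 9.8e-08, 36.6% called), or at least 4.14 and 4.28 by the same bound. With any 1 library left out, the difference from both sorts as measured lay between 4.75 and 5.37. A permutation test on Prom1 alone gave p = 2e-05, the smallest that 100000 resamples can give (0.0001 after adjustment over 5 organs).

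Other genes linked to the bile duct and to liver progenitors rose in the same carcinomas. Of 7 such genes tested, 5 rose and 0 fell: Afp (3.36), the fetal liver albumin relative, Sox9 (2.88), a transcription factor of duct cells, Cd24a (2.18), a surface glycoprotein, Epcam (1.77), an epithelial adhesion molecule, and the keratin Krt7 (1.68). Krt19 (0.67) and Cftr (1.07) were not called, and Epcam, Krt7 and Krt19 are also in the epithelial list. Of the same 7 genes, 4 rose in bronchial adenomas and 3 in prostatic adenocarcinomas, where Prom1 was not called. In gastric and in uterine tumours 1 rose. Of all probe sets 22.8%, 21.7%, 33.7% and 15.3% rose in these 4 types. In the epithelial list 10 of 14 rose and 0 fell in hepatocellular carcinomas (median 1.47, against 0.02 over all probe sets, of which 26.3% rose and 19.7% fell), Krt8 (2.83) and Cldn7 (2.71) most. Of 15 microvillus genes 7 rose, among them Pls1 (2.69) and Vil1 (2.66), which bundle actin in microvilli, and 3 fell, among them the peptidase Dpp4 (-2.10). The 8 hepatocyte genes showed no called change (11.82 in positive and 11.40 in negative cells, 11.76 in the carcinomas). T and NK (8 of 8), B cell (7 of 7) and endothelial genes (8 of 8) were lower in the carcinomas, and 4 of 8 fibroblast genes were higher (sample means of 4.68 to 7.58 against 4.13 to 4.86 in positive and 4.99 to 6.16 in negative cells). Their part in the Prom1 difference was not tested.

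Gastric adenocarcinomas ranged from 3.39 to 11.29 with a median of 7.83 (mean 7.84 ± 2.28, SD, n = 11). All 11 were below every positive stomach sample, and 8 were below every sorted stomach sample, whose lowest was 9.12. Tumours 11, 8 and 2 (11.29, 10.46 and 9.88) lay within the sorted range. Tumour 3, at 3.39, was below its array median and enters the sizes below as measured. The difference from the mean of both sorts was -3.19 (SE 0.81, 95% confidence interval -4.80 to -1.57, limma adjusted p = 5e-04), a 9.10-fold lower signal as measured, with 57% of probe sets called. It was -4.01 against positive cells (adjusted p = 0.00153, 44.8% called; -4.22 and 0.0798 with the 6 dimmer arrays left out, which leaves 1 positive sample) and -2.36 against negative cells (adjusted p = 0.0366, 49.4% called). The last value missed the threshold without tumour 1, 3, 5 or 9 (adjusted p = 0.05, 0.0874, 0.063 and 0.054) or without 1 of 3 negative samples (0.0996 without the sample at 10.57, 0.0657 without that at 10.20 and 0.0973 without that at 10.93). An exact permutation test on Prom1 alone gave p = 0.0027 for tumours against all sorted stomach samples (0.00676 after adjustment).

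The epithelial list did not fall as a whole in these tumours: 4 of 14 genes rose (Cldn4 3.17, Cldn3 3.07, Krt7 2.52 and Cldn7 2.08) and 4 fell, where 33.7% of all probe sets rose and 23.3% fell (Rab25 -2.81, Elf3 -1.62, Esrp1 -1.6 and Spint1 -1.04). Of 15 microvillus genes, 6 fell and 2 rose. Myo1a, the brush border myosin (-3.31), Dpp4 (-2.74), Anpep (-2.30), Vil1 (-1.84), Pls1 (-1.38) and Espn (-1.36) fell. Podxl (4.73), the largest change in the list, and Eps8 (1.28) rose. All 8 stomach genes, which include mucins, gastrokines and the acid pump, fell, from sample means of 11.61 to 12.98 in positive and 12.06 to 12.93 in negative cells to 3.42 to 9.72 in the tumours. All 8 macrophage genes and 7 of 8 fibroblast genes rose, the fibroblast means from 3.50 to 5.47 over both sorts to 7.17 to 8.18. How far this changed mixture of cells enters the lower Prom1 signal was not tested.

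Uterine adenocarcinomas had the widest spread of any group, 2.45 to 10.66 with a median of 7.28 (mean 6.94 ± 3.24, SD, n = 9). All 9 were below every positive uterus sample and 6 were below every sorted uterus sample, whose lowest was 9.49. Tumours 7, 4 and 9 (10.66, 10.66 and 9.73) lay within the sorted range, whereas tumours 3 and 8 (2.56 and 2.45) were below their array medians. Signals of these 2, not told apart from background, enter the sizes below as measured. The difference from the mean of both sorts was -3.70 (SE 0.85, 95% confidence interval -5.38 to -2.02, limma adjusted p = 0.000336), a 13-fold lower signal as measured, with 27.6% of probe sets called. It was -4.43 against positive cells (adjusted p = 0.000415, 20.9% called) and -2.97 against negative cells (adjusted p = 0.045, 20.5% called). The comparison with negative cells missed the threshold without tumour 1, 2, 3 or 8 (adjusted p = 0.0837, 0.0625, 0.112 and 0.113) and without any 1 of the 3 negative samples (0.102 to 0.155). An exact permutation test on Prom1 alone gave p = 0.00559 against all sorted uterus samples (0.00932 after adjustment).

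Epithelial genes did not fall with Prom1 in the uterine tumours: 4 of 14 rose (Krt7 1.81, Rab25 1.6, Ehf 1.41 and Esrp1 1.24) and 0 fell, where 15.3% of all probe sets rose and 12.2% fell. Their list mean was 9.39 to 10.47 in every tumour, against 9.23 to 10.40 in positive and 8.16 to 9.55 in negative cells. Of the microvillus genes Anpep (-2.13) and Dpp4 (-1.31) fell and Slc9a3r1, an apical scaffold protein, rose (1.26). Squamous genes, which include keratins of stratified epithelia, rose (6 of 7), with sample means of 4.58 to 9.38 against 3.59 to 4.38 in sorted uterus cells. Fibroblast genes fell (4 of 8; 6.69 to 10.58 in tumours against 8.20 to 10.63 over both sorts) and so did 3 of 8 macrophage genes (8.0 to 9.78 against 7.53 to 11.48). The part of these cells in the lower Prom1 signal was not tested.

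In prostate, Prom1 in the 10 adenocarcinomas ran from 7.44 to 10.42 with a median of 8.93 (mean 9.04 ± 1.04, SD). Of the 10, 9 were inside the sorted range of 7.89 to 10.56. At the same time 7 were below every positive sample, and 5 were above every negative sample. The difference from the mean of both sorts was -0.26 (95% confidence interval -1.86 to 1.34, limma adjusted p = 0.836, 35.9% of probe sets called), and from -0.42 to -0.09 with 1 library left out. It was -1.14 against positive cells (adjusted p = 0.49, 24.6% called) and 0.62 against negative cells (adjusted p = 0.666, 32.6% called). All 5 prostate genes fell in these tumours, from 12.02 to 12.90 over the sorted samples to 5.32 to 10.61, and 7 of 14 epithelial genes rose. Of all probe sets 21.7% rose and 14.2% fell.

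Bronchial papillary adenomas read 4.16 to 8.80 with a median of 6.39 (mean 6.39 ± 1.43, SD, n = 14), of which 3 were above, 5 below and 6 within the sorted lung range of 5.92 to 7.37. The difference was -0.16 (95% confidence interval -1.61 to 1.29, limma adjusted p = 0.894, 41.7% called), and -0.16 against positive (adjusted p = 0.935, 29.2% called) and against negative cells (adjusted p = 0.916, 37.1% called). In this organ 13 of 14 epithelial genes rose, with a median of 3.78, where 22.8% of all probe sets rose and 18.9% fell, while Prom1 was not called. Its sign turned without adenoma 3 or 12.

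Across the 7 tumour types Prom1 was highest in prostatic and lowest in lymphoid tumours. The order of means was prostatic adenocarcinoma (9.04), hepatocellular carcinoma (7.99), gastric (7.84) and uterine adenocarcinoma (6.94), bronchial adenoma (6.39), squamous cell carcinoma of skin (6.03 ± 3.18, SD, n = 6) and B-cell lymphoma (3.91 ± 0.91, SD, n = 3). The types differed (limma F test, adjusted p = 0.00411), in a fit where 93.2% of 30661 probe sets differed. No step between neighbours in this order was called, and 5 of the 21 pairs were. Prostatic adenocarcinomas exceeded bronchial adenomas by 2.64 (adjusted p = 0.01, 44.2% of probe sets called), squamous cell carcinomas by 3.01 (adjusted p = 0.0257, 32.3% called) and lymphomas by 5.12 (adjusted p = 0.00185, 39.2% called). Lymphomas were also exceeded by hepatocellular carcinomas, by 4.08 (adjusted p = 0.00877, 49.4% called), and by gastric adenocarcinomas, by 3.93 (adjusted p = 0.0156, 42.3% called). With each lymphoma at no less than its array median, the 3 differences from lymphomas were at least 4.92, 3.88 and 3.72. Prostatic adenocarcinoma and lymphoma were the 1 pair whose ranges did not overlap. The lymphomas read 3.75, 3.10 and 4.90, and only sample 3 was more than 1 unit above its array median. B cell genes had a mean of 8.14 in them, T and NK genes 8.54 and macrophage genes 9.33, so these pieces did not hold B cell signal alone.

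Spread within groups was wider among tumours than among most sorted cells. The SDs were 0.91 to 3.24 over the 7 tumour types and 0.01 to 1.16 over the 12 sorted groups. Squamous cell carcinomas fell into low samples (2.71, 3.76 and 3.77), 1 intermediate sample (6.31) and high samples (9.37 and 10.27). Hepatocellular, gastric and uterine tumours likewise held samples near background beside samples close to 10. No sample stood apart from its group by Dixon's criterion in the 10 groups of 4 to 10 samples. Hepatocellular, gastric and bronchial tumours were too many for that range, so hepatocellular carcinoma 9 (2.79) was not tested. The criterion looks for 1 extreme sample and cannot judge several low samples in the same group. These are whole tumours, so the spread was set against the mean of the 14 epithelial genes within each group of at least 6 samples.

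Prom1 and the epithelial mean were not related at an adjusted p under 0.05 in any of 8 groups. The closest was squamous cell carcinoma of skin (n = 6): Pearson r = 0.90 (exact permutation p = 0.0139, adjusted p = 0.111) and Spearman rho = 0.94 (exact permutation p = 0.0167, adjusted p = 0.133), with r = 0.88 without the 2 samples farthest from the median. The 3 samples with the lowest Prom1 had epithelial means of 6.62, 6.75 and 8.32 and the other 3 had 9.87, 10.21 and 11.03, so the relation is between few samples in clusters. Gastric adenocarcinomas (n = 11) gave r = 0.52 (permutation p = 0.115, adjusted p = 0.329) and rho = 0.65 (permutation p = 0.0335, adjusted p = 0.134), and r = 0.45 without the 2 farthest samples. Tumour 3, with the lowest Prom1 (3.39), had an epithelial mean of 9.86. Prostatic adenocarcinomas (n = 10) gave r = 0.52 (permutation p = 0.123, adjusted p = 0.329) and rho = 0.46 (permutation p = 0.193, adjusted p = 0.507), and r = -0.02 without the 2 farthest samples.

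In the other 5 groups the coefficients were small or negative. They were r = 0.07 and rho = 0.24 in hepatocellular carcinoma (n = 13, permutation adjusted p = 0.926 and 0.663), r = -0.38 and rho = -0.33 in bronchial adenoma (n = 14, permutation adjusted p = 0.364 and 0.507), and r = -0.19 and rho = -0.15 in uterine adenocarcinoma (n = 9, exact permutation adjusted p = 0.83 and 0.783). Negative lung cells (n = 7) gave r = -0.44 and rho = -0.32 (exact permutation adjusted p = 0.487 and 0.663), and negative liver cells (n = 7) r = 0.02 and rho = -0.14 (exact permutation adjusted p = 0.987 and 0.783). Without the 2 farthest samples r was -0.19 in hepatocellular carcinoma, -0.56 in bronchial adenoma, 0.18 in uterine adenocarcinoma, 0.14 in negative lung and -0.55 in negative liver cells. The uterine tumours with Prom1 near background, 3 and 8, had epithelial means of 10.10 and 10.31, as high as tumours 4 and 7 with Prom1 at 10.66 (10.47 and 10.05). Hepatocellular carcinoma 9, without Prom1 signal above its array median, had an epithelial mean of 7.51, among the highest of its type.

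**Figure D3:**
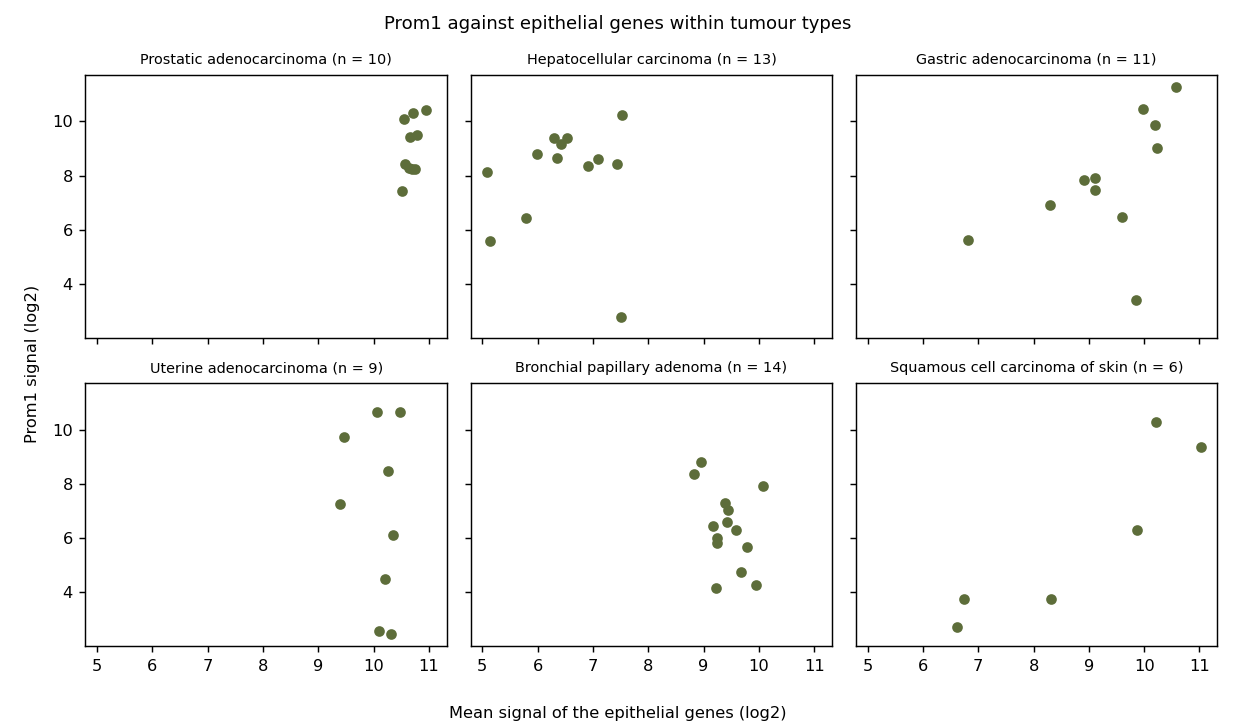
Prom1 signal (log2, vertical axis) against the mean of 14 epithelial genes (log2, horizontal axis) in 6 tumour types, 1 point per tumour and the same axes in every panel. Low Prom1 goes with low epithelial signal in squamous cell carcinoma of skin (r = 0.90, n = 6), while uterine tumours run from 2.45 to 10.66 in Prom1 at nearly the same epithelial signal.

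The genes with a pattern most like that of Prom1 were ranked over 13777 genes, as a description with no test. Over the 19 group means, the 6 highest Pearson r were 0.86 for Rhpn2, a rhophilin that binds the GTPase RhoB, 0.86 for Tspan8, a tetraspanin, 0.86 for Slc44a4, a choline transporter-like protein of epithelia, 0.85 for Gstm5, a glutathione transferase, 0.84 for Arf4, a GTPase of vesicle transport, and 0.84 for Car2, a carbonic anhydrase. The 19 points are few and share tissues. Tspan8 shows the likeness: its group means were 12.64 in positive stomach and 10.86 in positive uterus cells, 3.68 and 3.36 in positive and negative liver cells, and 9.75 in hepatocellular carcinomas. It differed from Prom1 in bronchial adenomas, where it was at 11.51. The 3 lowest were Chst15 (-0.83), Gba2 (-0.85) and Wfdc21 (-0.91). Wfdc21 was bright where Prom1 was dim, at 11.64 and 11.17 in the positive and negative liver cells and 10.89 in lymphomas. It was also bright in hepatocellular carcinomas, at 10, where Prom1 was at 7.99.

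**Figure D4:**
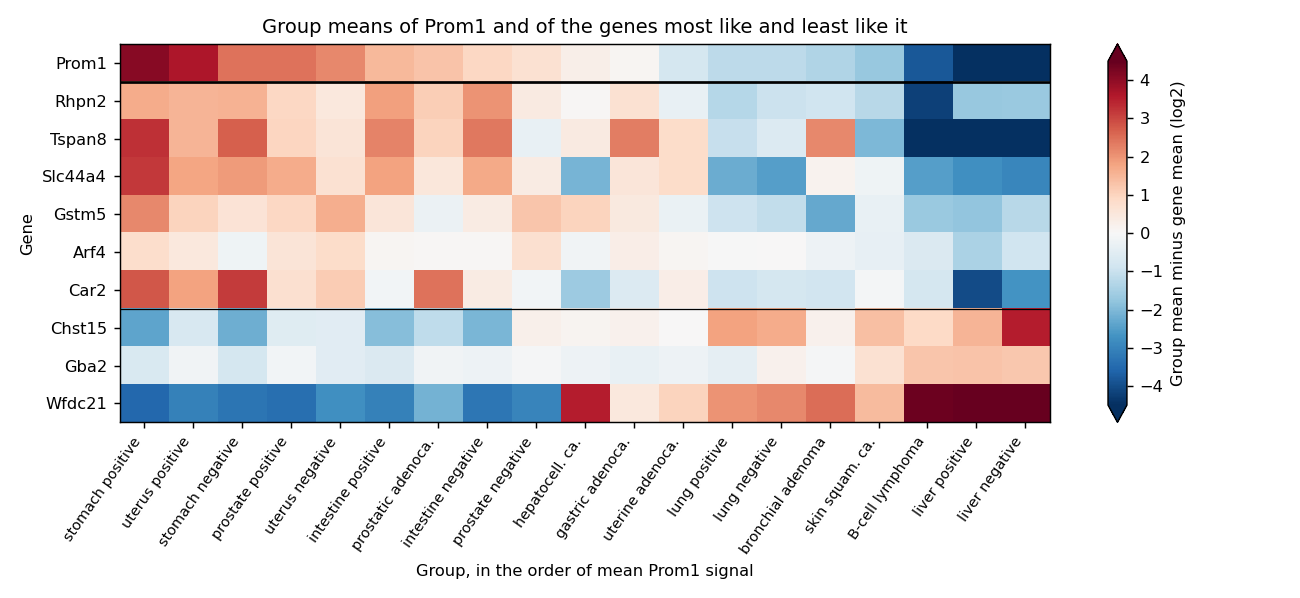
Group means of Prom1, of the 6 genes most like it and of the 3 least like it over 19 groups, each minus that gene's mean over the groups (log2, colour; values beyond 4.5 in either direction share the end colours), with groups in the order of mean Prom1. The upper 7 genes go mostly from red to blue from left to right, Tspan8 in bronchial adenomas being an exception, and Chst15, Gba2 and Wfdc21 go mostly the other way.

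Over the deviations of 117 samples from their group means, which leave tissue and tumour type out, the highest r were lower in size. The 2 measures rest on different numbers of points and cannot be compared directly. The 99th percentile of r over all genes was 0.681 for the group means and 0.324 for the deviations. The 6 highest r were 0.53 for Reg3g, an antibacterial lectin of epithelia, 0.52 for Ifit1bl1, an interferon-induced gene, 0.51 for Foxa1, a transcription factor of endodermal epithelia, 0.51 for Tspan1, a tetraspanin, 0.51 for Atp10b, a membrane phospholipid flippase, and 0.49 for Slc44a4. Slc44a4 was the 1 gene among the first 6 by both measures. Lowest were Myh2 (-0.40), Aox4 (-0.40) and Sult2b1 (-0.42), of which Myh2 is a muscle myosin.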

How the data were processed

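RNA of 117 samples was measured on 1-colour Affymetrix arrays. The authors deposited log2 signals per probe set, made with RMA in Partek 6.6, per the submitters' processing notes. RMA corrects background, normalises arrays to each other and sums the probes of a set, which compresses low signals. No normalization was added, and arrays give no read depth: precision depends on their number.

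Of 45141 probe sets, 104 controls were left out of the fits. Of all probe sets, 28898 had 1 gene symbol, 551 several and 15692 none. A probe set entered a fit when above the array median in at least 3 arrays. Group means were compared with limma 3.58.1 (lmFit and eBayes, R 4.3.3), two-sided, with Benjamini-Hochberg adjustment over all probe sets of a fit: 32656 for the 51 sorted samples, 34556 for all 117 and 30661 for the 66 tumours. Adjusted p-values under 0.05 are called. For a gene with several probe sets the brightest was used. Permutation tests used SciPy 1.17.1, exact or with 100000 resamples. The fits were first tested on made-up values with known changes. Samples were grouped by tissue, tumour type and sort in the labels; tumours are numbered in accession order as names only. Number 2 occurs for 2 negative stomach samples, named here by their Prom1 signals (10.57 and 10.20). The labels do not say that title numbers or neighbouring sample codes pair samples, so the main fits held no pairing. Deviations correlated above 0.1 in 6 of 19 same-numbered pairs and in 18 of 37 pairs of neighbouring codes. Such counts cannot decide whether samples shared a preparation.

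Prom1, the gene lists and the tests were chosen with earlier results of these data known. Named are Prom1, members of the lists, and the 6 genes most and 3 least like Prom1 by each measure, with predicted and clone-named genes passed over. Alternatives were no filter, repeated quantile normalization, median centring, averaging by gene, the upper quartile as covariate, leaving out arrays, other sample sets and blocks; the permutation test and the removal of 4 libraries with genes of another organ were added after seeing the data, as were the bounds that set dim samples at no less than their array median. The lists of 8 erythroid, 8 intestine and 8 uterus genes served only to check the labels. Promoter windows are from RefSeq. Probe sequences and proteins were not used here.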

Additional observations from a re-analysis of the deposited data

Results flagged for a closer look

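The difference in Prom1 between positive and negative cells varied between the 6 tissues (limma F test of the interaction, adjusted p = 0.0315). The differences were 1.76 in prostate, 1.65 in stomach, 1.46 in uterus, 0.53 in intestine, 0.23 in liver, where both sorts lay near background, and 0.01 in lung.

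The difference in Prom1 between tumours and sorted normal cells varied between the 5 organs (limma F test of the interaction, adjusted p = 1.41e-11). As measured, it was 4.94 in liver, -0.16 in lung, -0.26 in prostate, -3.19 in stomach and -3.70 in uterus. In liver 10 of 11 sorted samples were below their array median, so the difference of means was at least 4.21, sampling error aside.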

How the results depend on the processing

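Up to 41 values on Prom1 were refitted under each of 14 alternatives and with each library left out. Fitted by gene, all 41 kept direction and call. Higher Prom1 in hepatocellular carcinoma and lower Prom1 in gastric and uterine adenocarcinoma against the mean of both sorts kept their calls in each alternative that refitted them. Calls lost were as follows. With no filter, uterine tumours minus negative cells was -2.97 (adjusted p = 0.0569). With repeated quantile normalization, the tissue by sort interaction had an adjusted p of 0.0629 and positive uterus minus negative stomach was 1.01 (0.0556). With the upper quartile as covariate, gastric tumours minus negative cells was -2.29 (adjusted p = 0.152) and the lung sort difference -0.036. Without arrays whose upper quartile is under 6, which leaves 1 positive stomach sample assumed to vary like the other groups, the stomach sort difference was 1.97 (adjusted p = 0.135), the interaction had an adjusted p of 0.0945, and gastric tumours were -4.22 from positive (0.0798) and -2.24 from negative cells (0.106). Without the negative stomach sample at 10.57 the last was -2.24 (0.0996), and without that at 10.20 it was -2.37 (0.0657). With all 117 samples in 1 fit, prostate (1.76, adjusted p = 0.477), stomach (1.65, 0.532), uterus (1.46, 0.679), the mean (0.94, 0.195) and the interaction (0.91) were not called. With stomach alone fitted, the sort difference was 1.65 (0.817). Prostatic tumours minus negative cells alone was 0.62. In permutation tests on Prom1 alone, prostate (1.76), stomach (1.65) and uterus (1.46) each had an adjusted p of 0.114.

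The labels do not say that title numbers pair samples, and the deviations of the samples cannot decide it. With the title number as a replicate block, prostate was 1.63 (adjusted p = 0.0909), stomach 1.67 (0.113), uterus 1.48 (0.0914), and the interaction had an adjusted p of 0.348; the mean of 6 tissues stayed called. With blocks of neighbouring sample codes, stomach was 0.92 (0.442).

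The order of negative stomach and positive prostate cells turned with median centring (-0.028), the upper quartile (-0.056) and without low arrays or the sample at 10.57 (-0.10), and that of hepatocellular and gastric tumours without the 4 libraries holding genes of another organ (-0.0055). With 1 library left out, the ranges were -0.22 to 0.39 and -0.29 to 0.59 for these pairs, -0.30 to 1.21 for bronchial adenoma minus squamous cell carcinoma and -0.015 to 0.45 for negative intestine minus negative prostate. They were 1.29 to 1.89 (stomach), 1.25 to 1.76 (uterus), 0.096 to 1.19 (intestine), -0.10 to 0.14 (lung) and -0.10 to 0.43 (liver) for the sorts, with an interaction adjusted p of 0.0149 to 0.0612. For tumours minus negative cells they were -2.72 to -1.92 (stomach), -3.44 to -2.41 (uterus) and -0.34 to 0.017 (lung). For prostatic tumours against both sorts they were -0.42 to -0.09. For lung tumours they were -0.35 to 0.0091 against positive cells and -0.34 to 0.013 against both.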
